A study of Homo sapiens with 48 samples.

Results

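The comparison described here set BEAS-2B cells treated for 18 h with indacaterol and GSK 256066 together (Ind/GSK) against BEAS-2B cells given vehicle for 18 h. Its members were the 4 arrays titled Ind/GSK at 18 h and the 4 arrays titled vehicle at 18 h, matched by the replicate number in the titles, 8 of the 48 arrays of the study. BEAS-2B is an immortalised human bronchial epithelial cell line. The Ind/GSK cells received both compounds at 10 nM and the vehicle cells received neither. Another treatment, GS-5759 at 10 nM, and times of 1, 2 and 6 h made up the other arrays, 4 per group in 12 groups. All groups shared the same culture: growth in supplemented keratinocyte serum-free medium, then 24 h in that medium without supplements. Whether replicates came from separate cultures is not labelled, and p-values here reflect only how much these samples vary, which may be technical.

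Indacaterol is a long-acting β-adrenoceptor agonist; its receptor couples to the stimulatory G protein and raises cAMP through adenylyl cyclase. GSK 256066 inhibits phosphodiesterase 4 (PDE4), an enzyme family that breaks cAMP down. In airway epithelium cAMP activates protein kinase A, which phosphorylates CREB, a transcription factor that binds the cAMP response element TGACGTCA or the shorter TGACG. Many genes driven this way, such as the NR4A nuclear receptors, are known for brief induction followed by decline, and both drug classes are used in obstructive lung disease.

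Values below are probe set signals on the linear scale deposited, and changes are log2 differences of (signal + 16), Ind/GSK minus vehicle, with their SE from a fit over all 48 arrays. A probe set was called risen or fallen where its limma p, adjusted by Benjamini-Hochberg over 41091 probe sets, was under 0.05. A gene stands by its brightest probe set with 1 gene symbol. The fit removed the mean level of each replicate number, because the comparison is defined by matched numbers.

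Replicate 3 stood apart from the other replicates in both groups. KRT14, a keratin of basal epithelial cells, had signals of 30.5, 25.2, 441000 and 20.4 in Ind/GSK replicates 1 to 4, against 25.0, 25.4, 275450 and 17.2 in vehicle replicates 1 to 4. S100A9, a calcium-binding protein of stressed squamous epithelium and neutrophils, had 1388800 in Ind/GSK replicate 3 and 60760 in vehicle replicate 3, while the other 6 arrays lay between 84.3 and 164. Replicate 3 held both genes at signals that the other replicates did not reach, and its Ind/GSK array was higher than its vehicle array for both. These signals lay above 18369, the highest of any probe set on the other 6 arrays. Across the study, the highest signal of a replicate 3 array ran from 186880 (vehicle, 1 h) to 1388800, while that of other arrays reached at most 19603. Whether such signals reflect RNA levels was not tested. S100A9 was not called (change 1.37, adjusted p = 0.26). The summed signal of 21 basal and squamous markers ran from 6006 to 1901800 in Ind/GSK arrays, against 6387 to 400060 in vehicle arrays. The highest sums were those of replicate 3 and were mostly KRT14 and S100A9, so they do not describe the whole list. S100A8 was also highest in replicate 3 (8744 with Ind/GSK and 856 with vehicle). KRT4, of the same list, was lowest there (47.6 with Ind/GSK and 183 with vehicle). The median change of the 21 at 18 h was 0.03. The 75th percentile of the Ind/GSK arrays was 557, 605, 554 and 592 in replicates 1 to 4, against 602, 581, 598 and 584 in the vehicle arrays, so the Ind/GSK array was the dimmer of the pair in replicates 1 and 3 and the brighter in replicates 2 and 4.

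Epithelial keratins were strong in both groups (KRT18 averaged 6111 with Ind/GSK and 6155 with vehicle; KRT8 averaged 3835 with Ind/GSK and 3969 with vehicle), whereas EPCAM, an epithelial adhesion molecule, averaged 68.2 with Ind/GSK and 71.1 with vehicle, under the level of 101 that separates the dimmer 40% of probe sets. Mesenchymal VIM averaged 10971 with Ind/GSK and 10784 with vehicle. Leukocyte markers passed that level in 3 of 11 cases, endothelial markers in 3 of 10 and ciliated or secretory markers in 4 of 13. The leukocyte marker PTPRC averaged 32.5 with Ind/GSK and 32.1 with vehicle. None of these 3 lists held a called gene in limma's test. At an unadjusted p under 0.05 the ciliated and secretory list held 2 higher genes, the leukocyte list 1 and the endothelial list 0. Over all probe sets 13.6% reached that level in either direction.

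A small set of genes differed between Ind/GSK and vehicle at 18 h. In whole cultures such as these, fewer cells of a type and less RNA per cell cannot be told apart. Of 41091 probe sets, 325 were called (0.791%), 108 risen (0.263%) and 217 fallen (0.528%). At an unadjusted p under 0.05 there were 5587, or 13.6%. Of 19775 genes, 169 were called (0.855%): 63 had risen (0.319%) and 106 had fallen (0.536%). The changes were small, with a median of 0.53 among the risen genes and -0.40 among the fallen ones; 6 genes rose and 3 fell by at least 2-fold. In 160 of the 169 genes all 4 matched differences had the same sign. Of 13374 genes above the level of 101, 9.93% had all 4 negative. That share covers 1 direction only and leaves out dimmer genes. The share of all genes with 4 equal signs in either direction was not counted, so the 160 have no like figure beside them. All 4 Ind/GSK arrays lay beyond all 4 vehicle arrays in 66 of the 169 genes, against 644 of all genes, or 3.26%. The 66 were 32 risen and 34 fallen genes. Calls rest on these same matched arrays, so neither count is separate support for them.

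These counts depend on the replicate pairing. Without the replicate block 4 probe sets were called risen (0.00973%) and 6 fallen (0.0146%), all of them among those called with it. With each array centred on its 75th percentile, 241 were called risen and 213 fallen, so risen probe sets made up 53.1% of the calls, against 33.2% as deposited. The median matched difference of the fallen genes was -0.55, -0.19, -0.62 and -0.18 in replicates 1 to 4, larger in the pairs whose Ind/GSK array was dimmer; that of the risen genes was 0.54, 0.42, 0.63 and 0.43. The part of array brightness in the falls was not tested. Leaving out the pair of replicate 3 left 19 risen and 14 fallen probe sets, and leaving out that of replicate 1 left 28 and 16, whereas 99 and 515 were called without replicate 2.

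**Figure D1:**
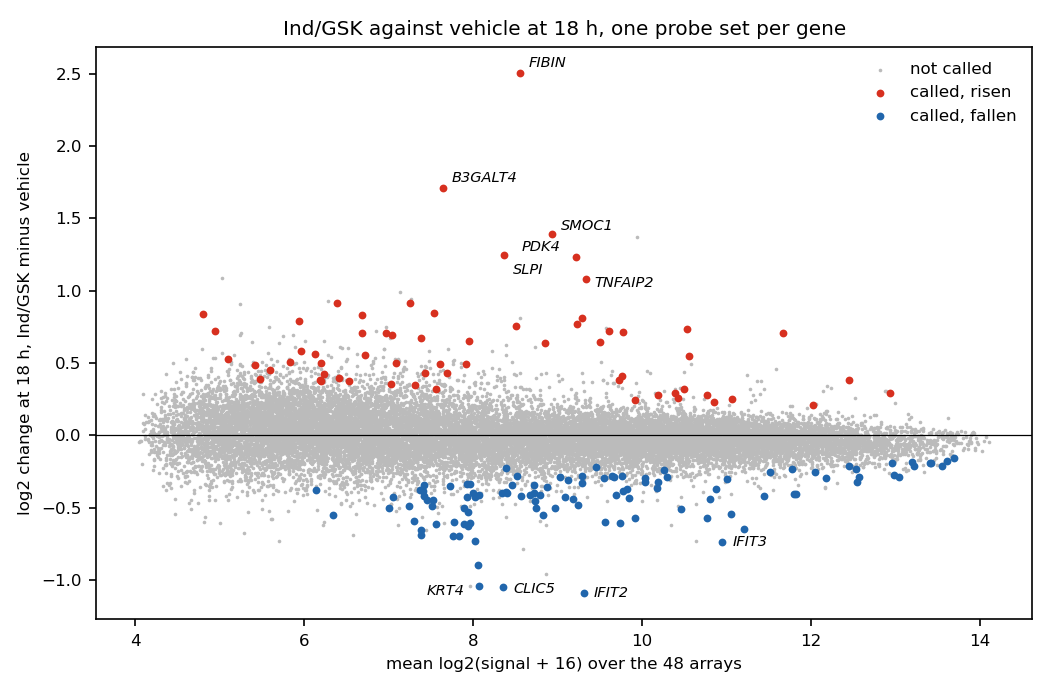
Change at 18 h (log2, Ind/GSK minus vehicle) against mean level over 48 arrays (log2 of signal + 16) for 19775 genes, each by its brightest probe set. Red points are the 63 genes called risen, blue points the 106 called fallen and grey points genes not called; FIBIN stands highest at 2.51 and IFIT2 lowest at -1.09.

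The promoters of 4 genes whose results are given below are shown first, because they carry the elements that the cAMP and interferon pathways are known to use. Each line gives the 250 bases before the transcription start in the RefSeq annotation of GRCh38.p14, 5′ to 3′ on the gene's strand. PDE7B lies on the plus strand at chr6:135851451-135851700, LINC00473 on the minus strand at chr6:165988040-165988289, SMOC1 on the plus strand at chr14:69879166-69879415 and IFIT3 on the plus strand at chr10:89327747-89327996. Capitals mark TGACGTCA in PDE7B, TGACG or its reverse complement CGTCA in LINC00473 and SMOC1, and the interferon response element core (GAAA, any 2 bases, GAAA), read on the other strand, in IFIT3.
PDE7B: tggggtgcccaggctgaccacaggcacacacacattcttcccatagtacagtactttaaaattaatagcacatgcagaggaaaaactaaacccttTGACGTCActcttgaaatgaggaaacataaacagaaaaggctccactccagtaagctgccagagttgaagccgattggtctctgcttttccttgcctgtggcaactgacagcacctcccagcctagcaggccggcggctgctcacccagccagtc
LINC00473: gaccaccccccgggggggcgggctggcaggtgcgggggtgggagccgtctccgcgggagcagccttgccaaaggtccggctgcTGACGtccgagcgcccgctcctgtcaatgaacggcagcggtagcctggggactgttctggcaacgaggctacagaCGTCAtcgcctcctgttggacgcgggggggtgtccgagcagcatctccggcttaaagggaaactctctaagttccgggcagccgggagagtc
SMOC1: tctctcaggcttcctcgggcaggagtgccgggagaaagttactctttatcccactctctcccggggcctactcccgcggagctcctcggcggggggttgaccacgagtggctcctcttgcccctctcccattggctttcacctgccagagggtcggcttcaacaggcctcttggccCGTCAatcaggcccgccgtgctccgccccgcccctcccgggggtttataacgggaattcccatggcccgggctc
IFIT3: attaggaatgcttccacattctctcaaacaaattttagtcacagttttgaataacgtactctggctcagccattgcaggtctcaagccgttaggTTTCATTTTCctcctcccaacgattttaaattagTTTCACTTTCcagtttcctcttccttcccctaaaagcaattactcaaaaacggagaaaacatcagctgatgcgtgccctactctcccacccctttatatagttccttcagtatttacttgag

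The match in PDE7B begins 155 bases before the start, those in LINC00473 at 167 and 92, that in SMOC1 at 74 and those in IFIT3 at 156 and 122. Over windows of 300 bases (250 before to 50 after the start) and both strands, TGACGTCA occurred in 1 of 43 risen genes with a window (2.33%), PDE7B, and in 1 of 86 fallen genes (1.16%), against 2.67% of 15384 tested genes with a window. The shorter TGACG, which every TGACGTCA contains, occurred in 12 risen genes (27.9%) and 19 fallen genes (22.1%), against 29.7% of the tested genes. In the 17 cAMP and CREB target genes with a window TGACG occurred in 52.9%. The interferon core, added after values had been seen, occurred in 65.0% of 20 interferon-stimulated genes with a window, in 2.33% of risen and 3.49% of fallen genes, against 2.94% of the tested genes. These matches describe letters in a window and were not tested for binding.

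Genes of cAMP breakdown moved in both directions. PDE4D, a PDE4 isoform that breaks down cAMP, had signals of 572, 422, 1566 and 406 in Ind/GSK replicates 1 to 4, against 402, 295, 482 and 340.3 in vehicle replicates 1 to 4. Every Ind/GSK array was above its own vehicle array, most in replicate 3, and the groups overlapped. The rise was 0.72 ± 0.19 (1.65-fold; adjusted p = 0.0487), and 0.52 without Ind/GSK replicate 3 (adjusted p = 0.23). It was also not called without vehicle replicate 1, 2 or 3 (adjusted p = 0.16, 0.054 and 0.26).

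PDE4A and PDE4B, the other PDE4 genes measured, were not called, with changes of 0.08 and 0.40. PDE4C was not analysed here.

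PDE7B, a cAMP-specific phosphodiesterase outside the PDE4 family, had 156, 162, 395 and 158 with Ind/GSK and 109, 107, 97.6 and 103 with vehicle. The groups did not overlap, and Ind/GSK replicate 3 stood above its fellows. The rise was 0.85 ± 0.20 (adjusted p = 0.0335), and 0.48 without that array (adjusted p = 0.2). Its call was also lost without vehicle replicate 1, 2 or 3 (adjusted p = 0.1, 0.052 and 0.12).

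PDE1C, a calmodulin-dependent enzyme that hydrolyses cAMP and cGMP, had 129, 253, 87.8 and 198 with Ind/GSK and 292, 289.5, 247 and 251 with vehicle. All pairs fell, those of replicates 1 and 3 most, and the highest Ind/GSK array overlapped the vehicle range. The fall was -0.73 ± 0.12 (0.60-fold; adjusted p = 0.00128). It was -0.53 without the replicate 3 pair and then not called (adjusted p = 0.11). Of the 11 other cAMP phosphodiesterase genes measured, PDE7B rose, PDE1C fell and the remaining 9 were not called; the median of the 9 above the dim level was 0.05, against -0.02 for all 13374 genes above it.

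Among 14 receptor, G protein and adenylyl cyclase genes 1 fell, against 0.536% of all genes, and none rose. Without adjustment, 6 of the 14 were lower and 0 higher at p under 0.05, against 13.6% of all probe sets in either direction. ADRB1, the β1-adrenoceptor gene, fell by 0.49 ± 0.11 (limma adjusted p = 0.0302). Its signals were 107, 233, 75.3 and 250.5 with Ind/GSK, against 203, 262, 163 and 248 with vehicle. The matched differences were largest in replicates 1 and 3; in replicate 4 the difference was 0.01. Without Ind/GSK replicate 1 or 3, or vehicle replicate 1 or 3, it was not called (changes of -0.39, -0.44, -0.46 and -0.36).

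Of 20 known cAMP and CREB target genes measured, PDE4D and LINC00473 had risen at 18 h, against 0.319% of all genes, and none had fallen. At an unadjusted p under 0.05, 8 of the 20 were higher and 0 lower, against 13.6% of all probe sets in either direction. Of the 17 above the dim level 16 were positive, against 5505 of all 13374 genes above it. The median of the 17 was 0.33, against -0.02 for all genes above that level. At 6 h 10 of the 20 had risen (3.05% of all genes did), with a median of 0.67. The response of 5 of the 20 was smaller at 18 h than at 6 h by the test of that difference. Over all genes 0.91% were lower in that test.

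LINC00473, a long noncoding RNA known to be induced through CREB, had 162, 165, 255 and 154 with Ind/GSK, against 123, 131, 67.7 and 89.97 with vehicle. The groups did not overlap and replicate 3 differed most. Its rise was 0.76 ± 0.18 (adjusted p = 0.0344). That rise was 0.41 without Ind/GSK replicate 3 (adjusted p = 0.19), and it was not called without vehicle replicate 1, 3 or 4 (adjusted p = 0.1, 0.11 and 0.062).

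The nuclear receptor gene NR4A2 had 178, 119.8, 447 and 114 with Ind/GSK and 143, 104, 147 and 79.1 with vehicle, a change of 0.61 ± 0.40 that was not called (adjusted p = 0.523). Its changes at 1, 2 and 6 h were 4.08, 4.14 and 2.28, all called. Its 18 h response minus its 6 h response was -1.67, which was not called (limma adjusted p = 0.134). NR4A1 stood at 0.06 and NR4A3 at 0.94 (adjusted p = 0.944 and 0.205).

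SIK1, a kinase that restrains CREB coactivators, had a change of 0.49 (adjusted p = 0.228); RGS2, which limits Gq signalling, had 0.37 (adjusted p = 0.336), and the CREB-family gene CREM had 0.01. The cytokine gene IL6 had 0.25 (adjusted p = 0.792), against called changes of 3.25, 2.75 and 1.11 at 1, 2 and 6 h. Its 18 h response minus its 6 h response was -0.86, which was not called (limma adjusted p = 0.478).

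The 6 largest rises were those of FIBIN, B3GALT4, SMOC1, SLPI, PDK4 and TNFAIP2. FIBIN, a secreted protein named for its part in zebrafish fin bud formation, had signals of 1106, 123, 3709.8 and 119.6 with Ind/GSK, against 176, 1.02, 801 and 12.3 with vehicle. Every pair rose, by 2.55, 3.03, 2.19 and 2.26, but replicates 1 and 3 were far brighter than replicates 2 and 4 in both groups, so the groups overlapped. The rise was 2.51 ± 0.20 (5.68-fold on this scale; adjusted p = 3.78e-10), and the call was absent without the block (adjusted p = 0.831). With 1 or 64 added in place of 16 the rise was 3.49 or 1.80, the vehicle signals of replicates 2 and 4 being under the 16 added.

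B3GALT4, a galactosyltransferase of ganglioside synthesis, had 454, 173, 1205 and 195 with Ind/GSK and 195, 25.2, 350.4 and 46.4 with vehicle. It too rose in each pair around very different baselines. Its rise was 1.71 ± 0.33 (3.27-fold; adjusted p = 0.00694), and 1.70 without the replicate 3 pair, when it was not called (adjusted p = 0.092).

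SMOC1, a calcium-binding matricellular protein, had 1464, 445, 2335 and 372 with Ind/GSK, against 665, 199.6, 442 and 181 with vehicle. Replicate 3 rose more than the others. The rise was 1.39 ± 0.15 (2.62-fold; adjusted p = 2.02e-07).

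SLPI, an inhibitor of neutrophil elastase secreted by airway epithelium, had 997, 122, 6015 and 117 with Ind/GSK, against 324, 46.6, 2014 and 65.9 with vehicle. Pairs rose by 0.70 to 1.58. The rise was 1.25 ± 0.22 (2.37-fold; adjusted p = 0.00201), and 1.14 without the replicate 3 pair (adjusted p = 0.072).

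PDK4, a kinase that inhibits pyruvate dehydrogenase, had 793, 124, 2945 and 121 with Ind/GSK, against 384, 46.3, 1026 and 42.0 with vehicle. Its 4 pairs rose alike, by 1.01 to 1.51. The rise was 1.23 ± 0.15 (2.35-fold; adjusted p = 2.82e-06).

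TNFAIP2, first described as a gene induced by tumour necrosis factor, had 862, 309, 1647 and 311 with Ind/GSK, against 408, 169, 743 and 113 with vehicle. All pairs rose by 0.81 to 1.34. The rise was 1.08 ± 0.10 (2.12-fold; adjusted p = 1.12e-08). FIBIN, B3GALT4, SMOC1, SLPI, PDK4 and TNFAIP2 remained called whichever 1 of the 8 arrays was left out.

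**Figure D2:**
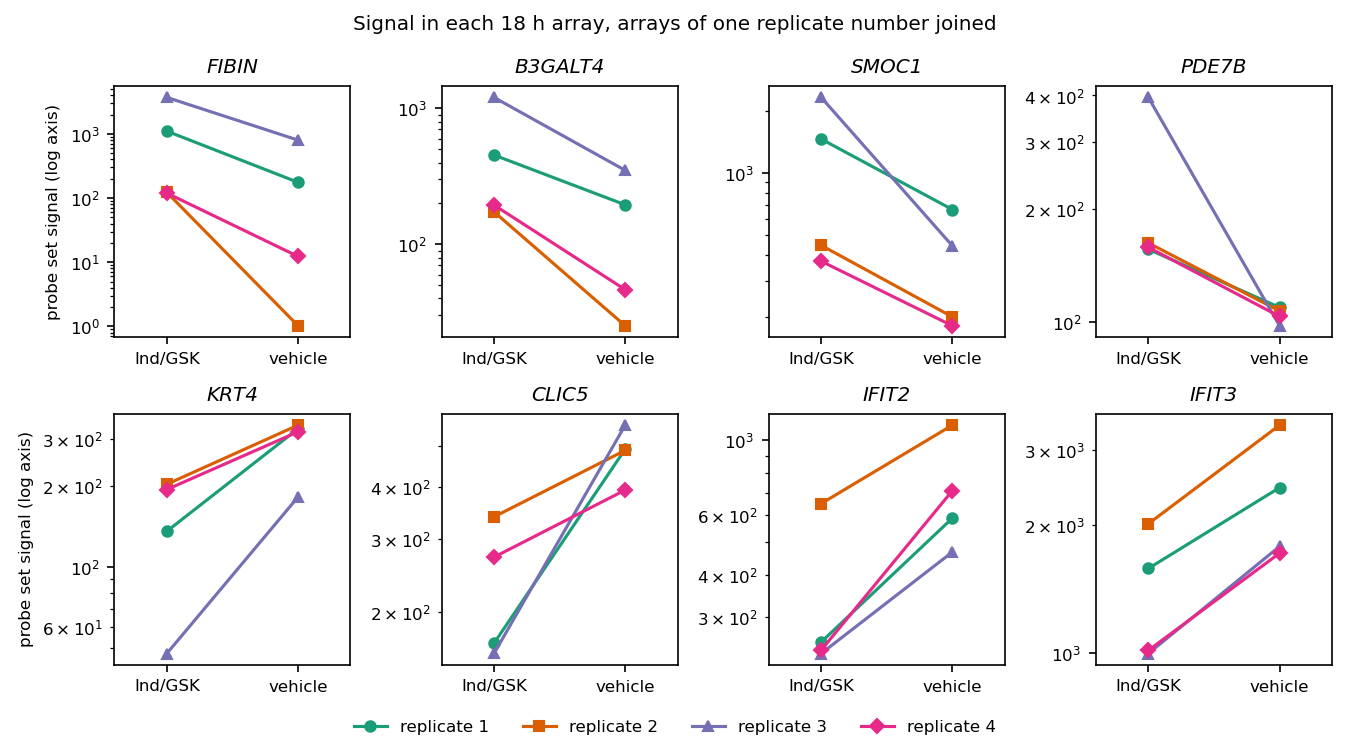
Probe set signal (log axis) of 8 genes in each 18 h array, Ind/GSK on the left and vehicle on the right, with arrays of the same replicate number joined and the vertical scale set per gene. FIBIN, B3GALT4, SMOC1 and PDE7B are higher with Ind/GSK in all 4 pairs and KRT4, CLIC5, IFIT2 and IFIT3 lower, while replicates 1 and 3 lie above replicates 2 and 4 for FIBIN and B3GALT4 in both groups.

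The next rises were between 0.77 and 0.92. The metalloreductase gene STEAP4 had 616, 609.9, 673 and 451 with Ind/GSK, against 405, 407, 225 and 332 with vehicle. Its groups did not overlap, and the rise was 0.77 ± 0.19 (adjusted p = 0.0408), but 0.52 without Ind/GSK replicate 3 (adjusted p = 0.22). STEAP4 was also not called without Ind/GSK replicate 1 or any 1 vehicle array (adjusted p = 0.066 to 0.15).

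CRISPLD2, a secreted glucocorticoid-responsive protein of airway smooth muscle, had 946, 381, 349 and 329 with Ind/GSK, against 598, 177, 189 and 193 with vehicle. Replicate 1 was the highest in both groups and all pairs rose. Its rise was 0.81 ± 0.16 (adjusted p = 0.00768), and 0.71 without Ind/GSK replicate 1 (adjusted p = 0.069).

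The antisense RNA TSPAN16-AS1 had 229.6, 118, 149.8 and 195 with Ind/GSK, against 77.3, 67.2, 101 and 83.4 with vehicle, with no overlap. Its rise was 0.92 ± 0.23 (adjusted p = 0.0449). It was not called when any 1 array other than Ind/GSK replicate 2 was left out (change without Ind/GSK replicate 1, 0.75, adjusted p = 0.23).

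COBL (an actin nucleator), MMP20 (a matrix protease of tooth enamel), ACKR1 (an atypical chemokine receptor) and the antisense RNA DLG3-AS1 also rose, by 0.92, 0.84, 0.83 and 0.79, with mean levels under the dim level. MMP20 had 14.9, 14.3, 20.2 and 33.0 with Ind/GSK, against 7.61, 0.0557, 4.59 and 4.58 with vehicle, so its fold depends on the 16 added. In all, 20 of the 63 risen genes and 2 of the 106 fallen genes had a mean under the dim level. The changes of COBL, MMP20, ACKR1 and DLG3-AS1 were 0.59, 0.31, 0.60 and 0.40 with 64 added, and COBL was then not called (adjusted p = 0.1).

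Of the epithelial junction and keratin genes, KRT7, a keratin of simple epithelia, rose by 0.73 ± 0.13 (adjusted p = 0.00201). It had 2282, 498, 7599 and 467 with Ind/GSK, against 1323, 379.6, 4103 and 246 with vehicle. No other KRT7 probe set was called, and the next brightest (mean 9.78 in log2, against 10.53) changed by 0.19 (limma adjusted p = 0.363). The other 13 measured genes of that list were not called.

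LPL, lipoprotein lipase, had 1140.5, 537, 2511 and 435 with Ind/GSK in replicates 1 to 4, against 650.4, 413, 946 and 348 with vehicle. The rise was 0.72 ± 0.16 (adjusted p = 0.0221), and 0.51 without Ind/GSK replicate 3 (adjusted p = 0.15). LPL and PDK4 were the risen members of 15 lipid uptake and oxidation genes, against 0.319% of all genes, and none had fallen. At an unadjusted p under 0.05, 5 of the 15 were higher and 0 lower, against 13.6% of all probe sets in either direction. The call of LPL was also lost without Ind/GSK replicate 1 and without vehicle replicate 1 or 3 (adjusted p = 0.065, 0.094 and 0.12).

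The 3 largest falls were those of IFIT2, CLIC5 and KRT4. KRT4, a keratin of moist stratified epithelium, had 136, 204, 47.6 and 195 with Ind/GSK, against 328, 338, 183 and 319.6 with vehicle. All matched differences were negative, -0.67 to -1.64, and 2 Ind/GSK arrays reached the level of vehicle replicate 3. The fall was -1.04 ± 0.14 (0.48-fold; adjusted p = 5.05e-05).

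CLIC5, a chloride intracellular channel protein, had 168, 338, 159 and 271 with Ind/GSK, against 492, 489, 561 and 392 with vehicle. The groups did not overlap; the differences were -1.46 and -1.72 in replicates 1 and 3 and -0.51 in replicates 2 and 4. Its fall was -1.05 ± 0.22 (adjusted p = 0.0105). It was not called without Ind/GSK replicate 1 or 3 (changes of -0.94 and -0.89), or without vehicle replicate 1 or 3 (-1.01 and -0.96). No other CLIC5 probe set was called. The next brightest (mean 8.26 in log2, against 8.36) had a change of -0.08 (limma adjusted p = 0.798).

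GASK1B, a Golgi-associated protein, had 168, 111, 167 and 99.1 with Ind/GSK, against 357, 195, 458 and 143 with vehicle, a fall of -0.90 ± 0.17 (adjusted p = 0.00401). It was -0.69 without vehicle replicate 3 (adjusted p = 0.058).

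NPNT, an integrin ligand of basement membranes, had 143, 50.7, 642 and 36.6 with Ind/GSK, against 302, 78.2, 1147 and 56.3 with vehicle. Its level differed more between replicates than between groups, yet every matched difference was negative, -0.458 to -0.996. The fall was -0.69 ± 0.11 (adjusted p = 0.000493).

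BEST2, a bestrophin chloride channel, had 97.3, 159, 81.7 and 147 with Ind/GSK, against 186, 217, 188 and 188 with vehicle. The groups did not overlap. The fall was -0.66 ± 0.12 (adjusted p = 0.00289), and BEST2 was 1 of the 2 among the 30 largest changes called also without the block (adjusted p = 0.0397), beside DLG3-AS1 (adjusted p = 0.0392).

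FAT3, CCN3, SFTA1P, ID2, ID2B, NAV3 and CAPSL also fell, and each differed most in replicates 1 and 3. FAT3 (an atypical cadherin) fell by 0.69 ± 0.13, CCN3 (a matricellular protein) fell by 0.63 ± 0.10, and the transcribed pseudogene SFTA1P fell by 0.60 ± 0.11. Other probe sets of FAT3 and CCN3 above the dim level changed by -0.17 and -0.23, and were not called (limma adjusted p = 0.346 and 0.15). ID2, an inhibitor of helix-loop-helix transcription factors, had 1012, 1354, 1207 and 1171 with Ind/GSK, against 1647, 1574, 2726 and 1694.5 with vehicle.

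The groups of ID2 did not overlap, and its fall was -0.65 ± 0.15 (adjusted p = 0.0243). The fall of -0.70 ± 0.15 in its near-identical pseudogene ID2B is uncertain, because the probes may share transcripts. NAV3, a microtubule-associated protein, fell by 0.62 ± 0.14 and CAPSL fell by 0.61 ± 0.15. Without Ind/GSK replicate 3 the changes of ID2, ID2B, NAV3 and CAPSL were -0.56, -0.56, -0.52 and -0.47, and none was called. The same 4 genes were not called without Ind/GSK replicate 1 or vehicle replicate 3; ID2, NAV3 and CAPSL were not called without vehicle replicate 1, and CAPSL was not called without vehicle replicate 2. KRT4, PDE1C, FAT3, NPNT, BEST2, CCN3 and SFTA1P remained called whichever 1 of the 8 arrays was left out.

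**Figure D3:**
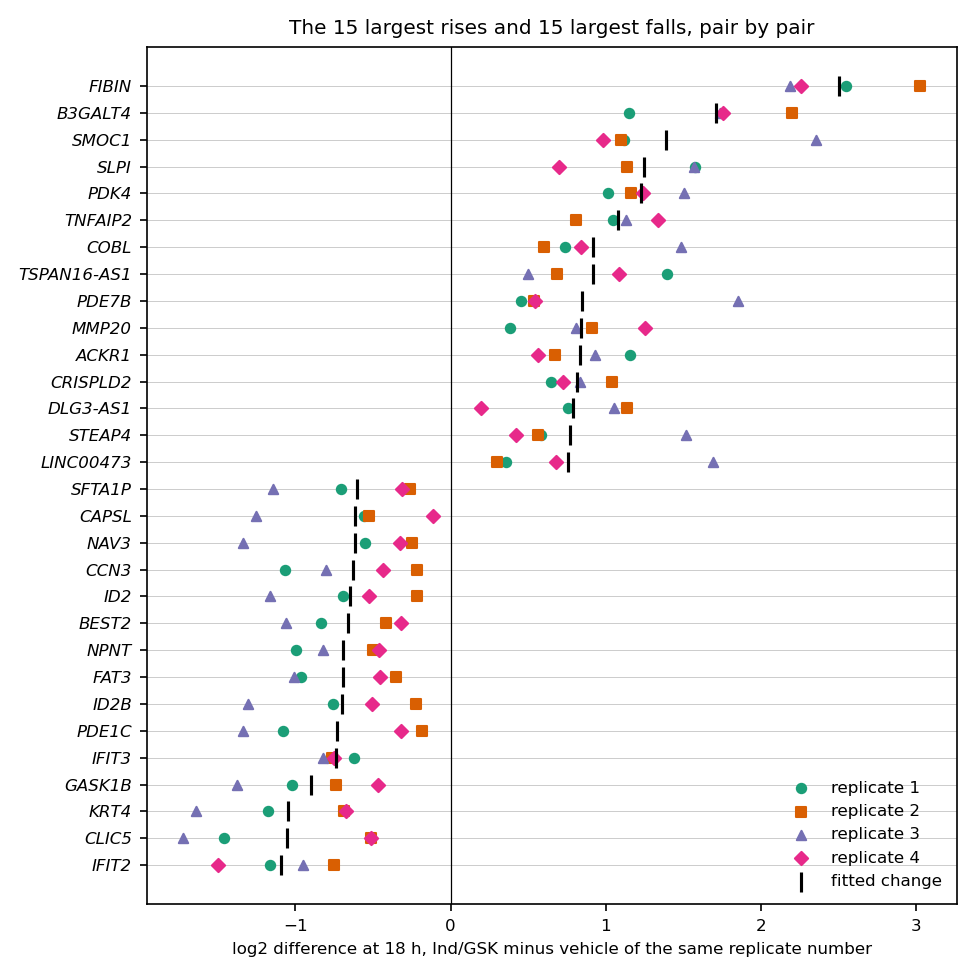
Matched log2 differences at 18 h (Ind/GSK minus vehicle of the same replicate number; 1 symbol per replicate) of the 15 largest rises and 15 largest falls, with the fitted change as a black bar. All 4 symbols lie on the same side of 0 for each gene, as the choice of genes required; FIBIN runs from 2.19 to 3.03, and the falls of CLIC5 are -1.46 and -1.72 in replicates 1 and 3, against -0.51 in replicates 2 and 4.

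Most interferon-stimulated genes had negative changes, and 3 of 26 passed the test. These genes encode antiviral proteins that interferons induce through STAT factors. Of 26 measured, IFIT2, IFIT3 and RIGI had fallen, against 0.536% of all genes, and none had risen. Of the 26, 24 were negative, against 7869 of the 13374 genes above the dim level. The median of the 26 was -0.33, against -0.02 for all genes above that level. All 4 pairs were negative in 15 of the 26 (57.7%), against 1328 of the 13374 genes above the dim level (9.93%). At an unadjusted p under 0.05, 9 were lower and 1, ISG20, was higher, against 13.6% of all probe sets in either direction.

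IFIT2, an interferon-induced protein that binds foreign RNA, had 254, 650, 235 and 240.1 with Ind/GSK, against 589, 1108, 468 and 709 with vehicle. Replicate 2 was the highest in both groups, so they overlapped. The fall was -1.09 ± 0.28 (0.47-fold; adjusted p = 0.0450). It was -0.85 without Ind/GSK replicate 1 (adjusted p = 0.25), and it was not called without Ind/GSK replicate 3 or 4 or vehicle replicate 2, 3 or 4 (adjusted p = 0.13, 0.051, 0.12, 0.1 and 0.12).

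IFIT3, which acts with other IFIT proteins, had 1581, 2013, 999 and 1016 with Ind/GSK, against 2446, 3428, 1781 and 1717 with vehicle. The 4 matched differences were alike, -0.62 to -0.82, also in replicates 2 and 4, where the Ind/GSK array was the brighter by its 75th percentile. The part of array brightness in this fall was not tested. The fall was -0.74 ± 0.19 (adjusted p = 0.049), and -0.70 with 75th percentile centring, then not called (adjusted p = 0.058). It was not called without any 1 array other than Ind/GSK replicate 2 (adjusted p = 0.065 to 0.19).

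RIGI, a sensor of viral RNA, had 375, 439, 277 and 294 with Ind/GSK, against 557, 715, 444 and 372 with vehicle. Its fall was -0.55 ± 0.14 (adjusted p = 0.0464), and it was not called without vehicle replicate 3 (-0.51, adjusted p = 0.2), nor without any other array except Ind/GSK replicate 2 and vehicle replicate 4. IFIT1 had a change of -0.73 that missed the threshold (adjusted p = 0.0594).

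RSAD2, the antiviral enzyme viperin, was called by a probe set other than its brightest, with 146, 169, 72.8 and 64.02 with Ind/GSK, against 278, 417, 161 and 149.9 with vehicle. That fall was -1.03 ± 0.25 (adjusted p = 0.0349). No member of the list was called as lower or higher at 18 h than at 6 h in the test of that difference, and at 6 h 1 had risen and 5 had fallen (3.05% and 7.42% of all genes).

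**Figure D4:**
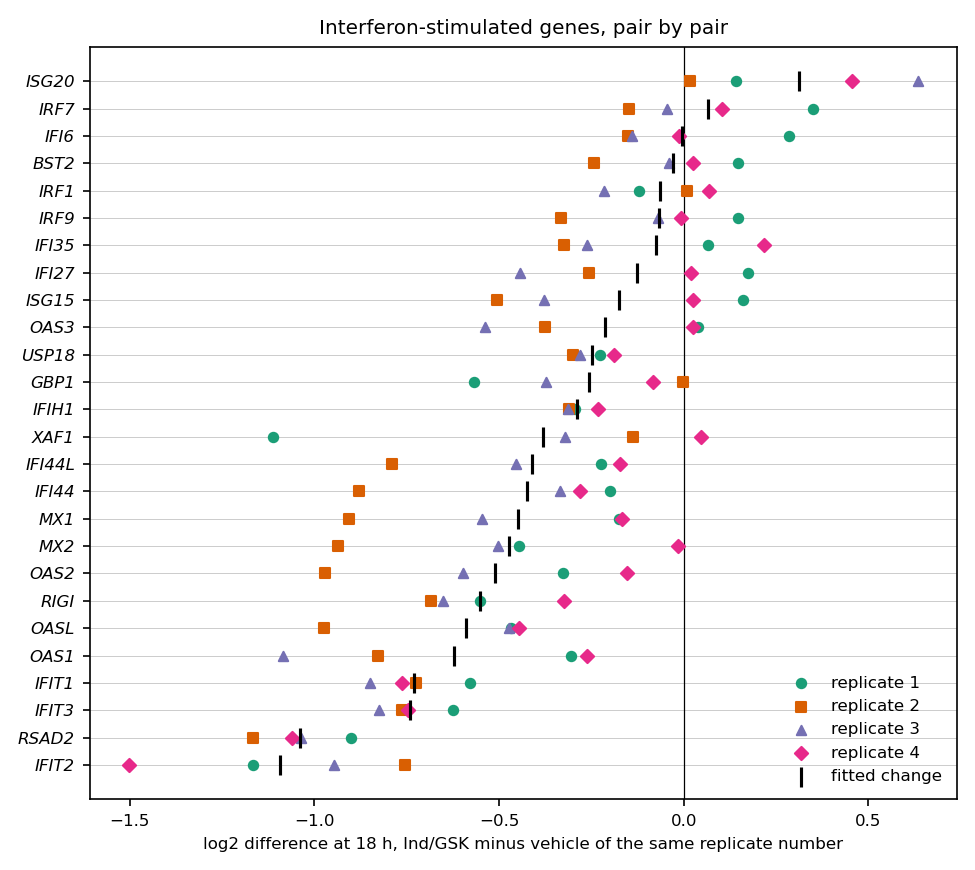
Matched log2 differences at 18 h (Ind/GSK minus vehicle of the same replicate number) of the 26 interferon-stimulated genes measured, with the fitted change as a black bar. IFIT2, RSAD2, IFIT3 and IFIT1 lie below 0 in all 4 pairs, and ISG20 lies above 0 in all 4.

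Of 20 YAP and SRF target genes, which report actin tension, TAGLN and CALD1 had fallen, against 0.536% of all genes, and none had risen. At an unadjusted p under 0.05, 11 of the 20 were lower and 0 higher, against 13.6% of all probe sets in either direction. Of the 19 above the dim level 18 were negative, with a median of -0.21. Of all 13374 genes above it, 7869 were negative. TAGLN, an actin-binding protein, had 352, 432, 275 and 488 with Ind/GSK, against 549, 544, 492 and 513 with vehicle, with no overlap. Its fall was -0.45 ± 0.09 (adjusted p = 0.00768); it was not called without Ind/GSK replicate 3 or vehicle replicate 1 or 3 (-0.40, -0.39 and -0.38).

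CALD1, which binds actin and calmodulin, fell by 0.28 ± 0.07 (0.83-fold; adjusted p = 0.0325), and its change was -0.24 with 75th percentile centring, when it was not called (adjusted p = 0.065). No other CALD1 probe set was called, and those with mean levels of 11.9, 11.4 and 11.2 in log2 changed by -0.32, -0.13 and -0.11. In the matrix list of 29 genes, POSTN rose by 0.43 ± 0.11 and SPARC fell by 0.18 ± 0.04. With 75th percentile centring POSTN was at 0.47 and SPARC at -0.15, and neither was called (adjusted p = 0.051 and 0.14). Leaving out Ind/GSK replicate 1 ended the calls of CALD1, POSTN and SPARC (-0.23, 0.36 and -0.19), and so did leaving out vehicle replicate 3 (-0.26, 0.48 and -0.15).

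TFPI2, a serine protease inhibitor, rose by 0.38 ± 0.09 (adjusted p = 0.0416) as the 1 called gene of 8 coagulation and plasminogen genes. PTGES, prostaglandin E synthase, fell by 0.44 ± 0.11 (adjusted p = 0.0371), 1 of 13 prostaglandin genes. ARRDC1, an alpha-arrestin, fell by 0.29 ± 0.07 (adjusted p = 0.0408), while its relative TXNIP stood at -0.04. Of all genes 0.319% had risen and 0.536% had fallen. None of TFPI2, PTGES and ARRDC1 was called without Ind/GSK replicate 3 (0.31, -0.39 and -0.19; adjusted p = 0.19, 0.14 and 0.22).

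Inflammatory and growth lists had no called gene at 18 h in limma's test. Of 26 cytokine, chemokine and adhesion genes 0 were called, with 2 higher and 1 lower at an unadjusted p under 0.05. Of 11 NF-kB subunit and inhibitor genes 0 were called and 0 reached an unadjusted p under 0.05. Over all probe sets 13.6% reached it. Of 20 glucocorticoid-inducible genes, CRISPLD2 was the 1 risen, against 0.319% of all genes. Without adjustment, 6 of these 20 were higher and 1 lower at p under 0.05, against 13.6% of all probe sets in either direction.

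The 27 G2/M and mitosis genes had 0 calls and 0 at an unadjusted p under 0.05, with a median of 0.03. At 6 h 11 of the 27 had fallen, against 7.42% of all genes. MKI67, a proliferation marker, had a change of 0.15 at 18 h and -0.50 at 6 h, a difference of 0.65 (adjusted p = 0.00986). The 18 sterol and fatty acid synthesis genes had 0 calls at 18 h, and 4 were lower at an unadjusted p under 0.05. Over all probe sets 13.6% reached that level in either direction. At 6 h 11 of the 18 had fallen, against 7.42% of all genes. MVD, an enzyme of the mevalonate pathway, had 0.10 at 18 h and -0.71 at 6 h, a difference of 0.82 (adjusted p = 0.00357).

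In 5 genes another probe set gave the largest calls where the brightest did not. PAPPA, a protease of IGF-binding proteins, had 145, 125, 166 and 105 with Ind/GSK, against 76.0, 72.3, 44.8 and 31.2 with vehicle at that probe set, a rise of 1.11 ± 0.17 (adjusted p = 0.000493). GALNT15, a mucin-type glycosyltransferase, rose by 0.87 ± 0.18, and CCDC198 by 0.85 ± 0.19 at signals under 33. Their brightest probe sets changed by 0.51 and 0.05, and neither was called. Another CCDC198 probe set went the other way, by -0.44 (limma adjusted p = 0.089). PRDM1, a transcriptional repressor, fell by 0.72 ± 0.17 at one probe set, while its brightest stood at 0.27. In all, 122 genes were called only by a probe set other than the brightest. Of the 63 risen genes, 20 had other probe sets above the dim level. Of these 31 probe sets, 28 had the same sign and 5 were also called risen. Of the 106 fallen genes, 54 had other probe sets above it. Of these 103 probe sets, 93 had the same sign and 18 were also called fallen.

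The 18 h response was compared with the response at earlier times, which rest on separate arrays. Of the 63 genes risen at 18 h, 15, 18 and 33 had also risen at 1, 2 and 6 h, when 1.87%, 2.44% and 3.05% of all genes had risen. The 33 were 52.4% of the 18 h list and 5.46% of the 604 genes risen at 6 h. No earlier call in that direction was found for 23. The 8 risen at all 4 times were FIBIN, TNFAIP2, SLPI, PDK4, PDE4D, LINC00473, LMO2 and GDF15. FIBIN had changes of 2.06, 1.71, 1.76 and 2.51 at 1, 2, 6 and 18 h, and TNFAIP2 of 0.97, 0.92, 0.99 and 1.08.

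Of the 106 genes fallen at 18 h, 16, 15 and 37 had also fallen at 1, 2 and 6 h, when 8.13%, 4.23% and 7.42% of all genes had fallen. The 37 were 34.9% of the 18 h list and 2.52% of the 1468 genes fallen at 6 h. No earlier call in that direction was found for 53. The median 6 h change of the 106 was -0.20. By the test of 18 h minus 6 h, 7 of the 106 were lower at 18 h and 2 higher. NPM1, SUB1 and LINC01085 had fallen at all 4 times.

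By the test of the 18 h response minus the 6 h response, 345 probe sets were higher (0.84%) and 394 lower (0.959%); in genes, 221 were higher (1.12%) and 180 lower (0.91%). Without the replicate block these were 14 and 25 probe sets. The largest decrease was that of CSGALNACT1, a chondroitin sulfate enzyme, which had 109, 178, 145 and 169 with Ind/GSK at 18 h, against 129, 89.1, 121 and 171 with vehicle. Its change was 0.22 at 18 h and 2.88 at 6 h, a difference of -2.66 ± 0.30 (adjusted p = 1.12e-06).

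Next came CRISPLD2 (0.81 at 18 h, 3.04 at 6 h), PDK4 (1.23 and 2.99) and LINC00473 (0.76 and 2.35). The amino acid transporter gene SLC7A2 had 0.44 at 18 h, just outside the threshold (adjusted p = 0.054), and 1.99 at 6 h. The complement receptor gene C5AR1, the growth factor gene BMP2 and LPL had 0.16, -0.07 and 0.72 at 18 h, and 1.60, 1.30 and 2.08 at 6 h. The difference of BMP2 was not called with 1 or 64 added (adjusted p = 0.13 and 0.14).

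In the other direction, EGR1, an immediate early transcription factor, had -0.22 at 18 h and -1.28 at 6 h, a difference of 1.06 ± 0.24 (adjusted p = 0.0112). RBM12, PFKFB4, PRDM10 and ZNF143 had between 0.06 and 0.11 at 18 h and between -0.76 and -0.55 at 6 h. NAV3 was low at both times (-0.62 and -1.49), and GPA33 had 0.36 and -0.37. Leaving out 1 array ended the calls of GPA33 and PFKFB4, whose adjusted p was 0.11 and 0.082 without vehicle replicate 1.

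**Figure D5:**
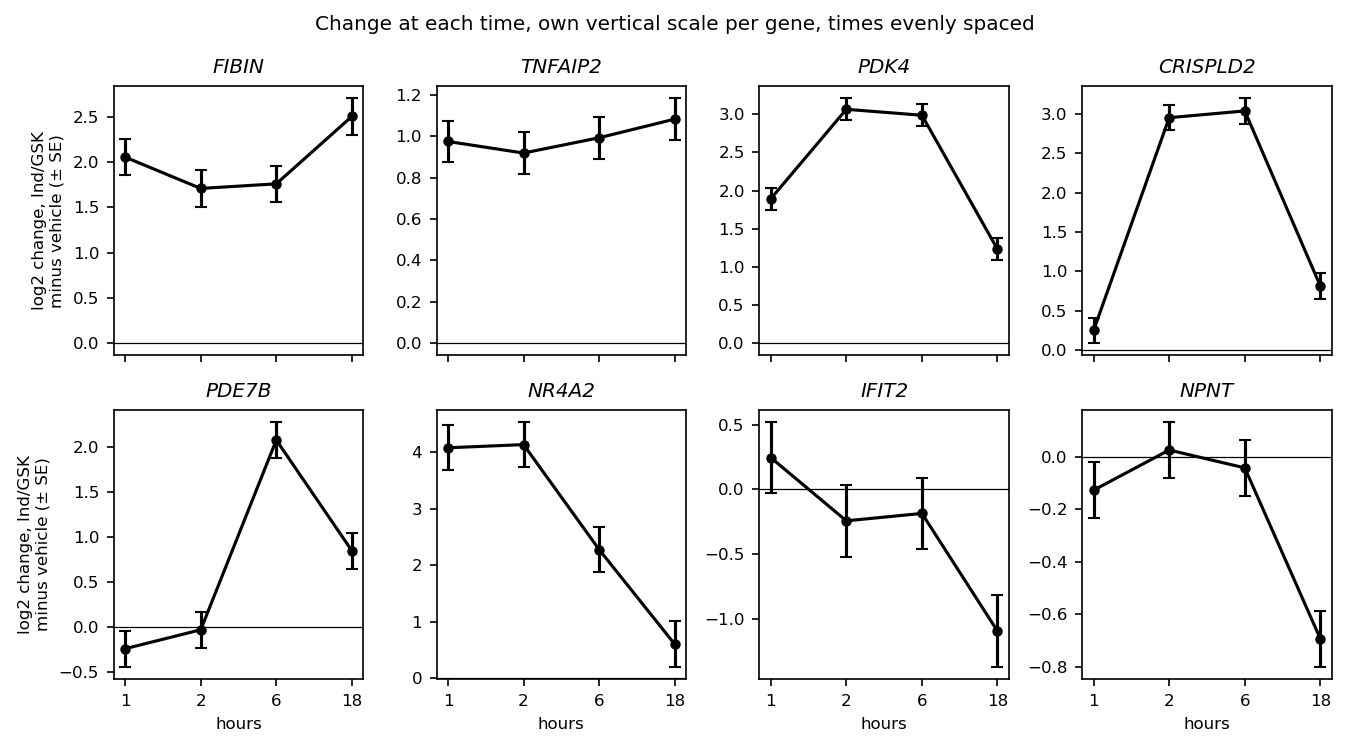
Log2 change (Ind/GSK minus vehicle, ± SE) at 1, 2, 6 and 18 h for 8 genes, each on its own vertical scale, with times evenly spaced. FIBIN and TNFAIP2 stay high at 18 h (2.51 and 1.08), PDK4, CRISPLD2, PDE7B and NR4A2 are below their 6 h change at 18 h, and IFIT2 and NPNT are lowest at 18 h (-1.09 and -0.69). The difference from 6 h was called for PDK4, CRISPLD2, PDE7B and NPNT and not for NR4A2 or IFIT2.

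GS-5759, which joins a β-agonist and a PDE4 inhibitor in 1 molecule, was given at the same dose and time. No probe set was called in GS-5759 minus Ind/GSK at 18 h by limma (0%); 1175 (2.86%) reached an unadjusted p under 0.05. Each was compared with the same vehicle arrays: GS-5759 gave 11 risen (0.0268%) and 3 fallen probe sets (0.0073%). FIBIN changed by 2.65 with GS-5759 and 2.51 with Ind/GSK, and their difference was 0.15 (95% interval -0.26 to 0.56). TNFAIP2 gave 1.19 and 1.08, KRT4 -0.97 and -1.04 and IFIT2 -1.06 and -1.09, with intervals of the difference of -0.10 to 0.31, -0.21 to 0.36 and -0.53 to 0.59.

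PDK4 changed by 0.73 with GS-5759 and 1.23 with Ind/GSK (difference -0.50, interval -0.80 to -0.21), and SMOC1 by 0.89 and 1.39 (difference -0.50, interval -0.79 to -0.20); neither difference passed adjustment. These were among the 5 largest negative differences of genes above the dim level, with SERPINB3 (-0.55), LINC02405 (-0.46) and SOSTDC1 (-0.40). The 5 largest positive ones were MYH16 (0.67), TRPS1 (0.52), ALPP (0.48), CX3CR1 (0.46) and CALCRL (0.45). Some of these values follow 1 array. SERPINB3 had 169, 132, 692 and 116 in Ind/GSK replicates 1 to 4, and SOSTDC1 had 268, 283, 940.2 and 278, so replicate 3 was far above the others for both. ALPP had 335, 937, 0.937 and 717 in those arrays, with replicate 3 far below. TRPS1 averaged 969 ± 814 with GS-5759 (SD, n = 4). An interval that includes 0 does not show that the treatments act alike.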

How the data were processed

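Total RNA of BEAS-2B cells was measured on 48 Affymetrix U133 Plus 2.0 arrays. The values are probe set intensities on a linear scale that the authors computed by PLIER; the submitters' processing notes name Affymetrix Expression Console as the software. Versions and any normalization between arrays are not given in the sources used here, and the number of arrays limits the precision.

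Of 54675 probe sets, the 41091 with 1 gene symbol were kept. Values were log2(signal + 16). R 4.3.3 and limma 3.58.1 fitted all 48 arrays (eBayes, no variance trend), with 12 group means and the replicate number as a block, leaving 33 residual degrees of freedom. The spread is therefore pooled over all times and treatments. Calls had a Benjamini-Hochberg adjusted p under 0.05. The pairing comes from the numbers in the titles. Deviations of arrays with the same number correlated at 0.44, 0.42, 0.80 and 0.61. Those of arrays with different numbers correlated at -0.58 to 0.49, so the highest of these passed the same-number values of 0.44 and 0.42. Still, 7 of 8 arrays were closest to the array of their own number. The dim level is the 40th percentile of mean signal.

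Genes named are, among called genes whose 4 matched differences share a sign, the 15 that rose most and the 15 that fell most, called members of 40 gene lists, the 5 largest calls by other probe sets, 8 genes each way for 18 h minus 6 h, 5 each way for GS-5759 minus Ind/GSK, and a set list of cAMP-responsive genes. The members and lists were chosen with earlier results of these data known. Motifs were searched on both strands of RefSeq GRCh38.p14 promoters. Alternatives were the block, the arrays fitted, the value added, a filter, the scaling, the variance trend and leaving out arrays or pairs.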

Additional observations from a re-analysis of the deposited data

Results flagged for a closer look

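In 64 sets of 4 arrays (the 30 largest changes in both groups, and 4 of array brightness), 10 had 1 array whose gap to its nearest neighbour took up more of the range than Dixon's 95% limit allows; chance gives about 1 in 20. With Ind/GSK, replicate 3 was high for PDE7B (0.959 of the range) and LINC00473 (0.866) and low for CAPSL (0.929), replicate 1 was high for CRISPLD2 (0.864) and replicate 2 was high for IFIT2 (0.925). With vehicle, replicate 1 was high for CRISPLD2 (0.931), replicate 2 was high for BEST2 (0.923), replicate 3 was low for KRT4 (0.906) and high for ID2 (0.866), and replicate 4 was low for CAPSL (0.92).

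The response at 18 h differed from that at 6 h by limma's test of the difference (log2, 18 h minus 6 h) in the following named genes. It was higher for EGR1 (1.061), RBM12 (0.877), NAV3 (0.872), MVD (0.816), GPA33 (0.73), PFKFB4 (0.679), PRDM10 (0.664) and ZNF143 (0.66). It was lower for CSGALNACT1 (-2.655), CRISPLD2 (-2.225), PDK4 (-1.757), LINC00473 (-1.595), SLC7A2 (-1.546), C5AR1 (-1.442), BMP2 (-1.369) and LPL (-1.364). Among the largest changes at 18 h it was also lower for PDE7B (-1.233), STEAP4 (-1.206), SMOC1 (-0.951), KRT4 (-0.744) and NPNT (-0.651).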

How the results depend on the processing

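As reported, 108 probe sets were risen and 217 fallen at 18 h, and 345 were higher and 394 lower in the 18 h minus 6 h response. Without the replicate block these were 4, 6, 14 and 25, and with a replicate block within each time 176, 359, 693 and 697. With the spread from fewer arrays, the 18 h arrays alone gave 9 risen and 1 fallen, and the 8 arrays alone gave 1 risen (FIBIN) and 0 fallen. Centring on the 75th percentile gave 241 risen, 689 higher and 619 lower; quantile normalization gave 220, 731 and 705. Only probe sets above the dim level gave 370 fallen and 593 higher, only the brightest probe sets 130 fallen and 217 lower, and a variance trend 367 fallen. Leaving out 1 array or 1 matched pair gave 19 to 127 risen, 14 to 606 fallen, 128 to 391 higher and 192 to 566 lower. Few calls were left without an array of replicate 1 or 3: 46 risen and 44 fallen without Ind/GSK replicate 1, 39 and 43 without Ind/GSK replicate 3, 52 and 56 without vehicle replicate 1, and 41 and 38 without vehicle replicate 3. Falls numbered 606 without Ind/GSK replicate 2 and 395 without vehicle replicate 4. The causes were not tested. No named call changed direction under any alternative run.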

Other observations

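The following called genes lie outside the naming rule and were chosen after their values were seen. IGFBP4, which binds insulin-like growth factors, averaged 4599 with Ind/GSK and 2760 with vehicle, a rise of 0.71 ± 0.09 (limma adjusted p = 3.83e-05) that was positive in all 4 pairs. DEFB1, an epithelial antimicrobial peptide, rose by 0.65 ± 0.13 (adjusted p = 0.0106), and GNAL, a stimulatory G protein subunit, rose by 0.49 ± 0.12 (adjusted p = 0.0403), with a difference of 0.02 in replicate 2. RARRES2, the chemoattractant chemerin, averaged 147 with Ind/GSK and 229 with vehicle. Its fall of -0.59 ± 0.10 (adjusted p = 0.00201) had nearly the same size in each pair, from -0.56 to -0.63. IL7R, a cytokine receptor subunit, fell by 0.57 ± 0.12, and OXTR, the oxytocin receptor, fell by 0.42 ± 0.08; both differed most in replicates 1 and 3. IFIT5, a relative of IFIT2, fell by 0.36 ± 0.09 (adjusted p = 0.0385). TNS1, which links integrins to actin, fell by 0.60 ± 0.10 and was also called without the replicate block (adjusted p = 0.0224), whereas IGFBP4, DEFB1, GNAL, RARRES2, IL7R, OXTR and IFIT5 were not.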
